A study of Mus musculus with 5 samples.

Results

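The genes described here are 10 genes of DNA replication and mitosis, Mcm2, Mcm3, Mcm4, Mcm5, Mcm6, Mcm7, Mki67, Top2a, Bub1 and Cdc20, out of 21631 protein-coding mouse genes that RefSeq places on the autosomes or the X chromosome. They were listed by name, and NKX2-1 sites were assigned to them where the summit of a peak lay inside the gene or within 10 kb of it. Sites came from chromatin immunoprecipitation and sequencing (ChIP-seq) of NKX2-1 in whole lung at postnatal day 10, and all mice were wild type. The formalin-fixed chromatin was precipitated with 4 antibodies to NKX2-1 (Abcam133737, Millipore07-601, Abcam76013 and Abcam133638), 1 library each, and an input library served as the control for peak calling. Sonicated chromatin was pooled, per the labels' protocol, and the number of animals is not given, so the libraries are not known to come from separate animals. No difference between antibodies has a replicate check, and no p-value is given. Peaks of the 4 lists that overlapped by at least 1 bp were joined into a region, and a region with a peak of every antibody is called a 4-antibody region. Of 68919 regions in the genome, 34 lay in or within 10 kb of the 10 genes. As a check on the tissue, 7 of 7 lung epithelial marker genes (Sftpc, Sftpb, Abca3, Ager, Aqp5, Hopx and Scgb1a1) had a 4-antibody region within 10 kb. So did 58.6% of all genes and 88% of 25 housekeeping genes, so this count says little about the tissue. Of the 7 markers, 6 had one within 1 kb of an own gene end, against 33.9% of all genes. Their best mean fold had a median of 19.0, from 5.38 at Hopx to 27.1 at Sftpb, against 7.03 over all genes with such a region.

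NKX2-1 is a homeodomain factor of lung and thyroid epithelium, and the genes described here belong to a programme that every dividing cell uses. The MCM proteins form the ring-shaped helicase that is loaded at replication origins and unwinds DNA at the fork. Their genes are known targets of E2F factors, which switch on transcription at the entry into S phase. Top2a encodes the topoisomerase that untangles sister chromatids, Mki67 encodes Ki-67, the surface protein of mitotic chromosomes used to stain dividing cells, Bub1 encodes a kinase of the spindle checkpoint, and Cdc20 encodes the activator of the anaphase-promoting complex that the checkpoint holds back. Promoters of such mitotic genes typically carry CCAAT boxes, bound by NF-Y, and a cell cycle homology region (CHR), bound by the MuvB complexes. Whole lung mixes dividing and resting cells of many types. Which cells carried NKX2-1 at these sites cannot be told from these data, nor can binding in few cells be told apart from weak binding in many.

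NKX2-1 peaks stood at an end, nearly always the start, of most of these genes. Of the 10 genes, 9 (90%, exact Clopper-Pearson 95% interval 55.5 to 99.7) had a 4-antibody region within 1 kb of an own gene end, and the background over all protein-coding genes was 33.9%. The exception was Mki67, whose start carried a peak of Millipore07-601 only. All 10 genes had a 4-antibody region within 10 kb, against 58.6% of all genes, and all 10 had a peak of at least 1 antibody there, against 72.6%. Intervals cover counting error only, and the genes were picked with earlier results of these data known, so the counts describe these genes and test nothing.

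Where the strand was known, the own-end regions lay at the transcription start. The RefSeq promoter table, which gives strand and start sites, holds 9 of the 10 genes and lacks Mcm4. Of these 9 genes, 8 had a 4-antibody region within 1 kb of a start site, against 35.2% of the genes in the table. None of the 9 (interval 0 to 33.6%) had one within 1 kb of the transcription end, against 4.98%, a background at which 9 genes can show no difference. Most of the start windows were rich in CpG, the dinucleotide that marks the promoters of widely active genes. A ratio of observed to expected CpG of at least 0.6 in the 300 bases around the start was found in 8 of the 9 genes, against 51.5% of genes in the table. Among CpG-rich genes the members counted 7 of 8 and all genes 54.8%. Mcm3, at a CpG ratio of 0.452, had a 4-antibody region at its start too, as did 14.3% of the genes without a CpG-rich window.

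Beyond the starts, the surroundings of the 10 genes differed. The 34 regions comprised 25 with all 4 antibodies, 3 with 3, 2 with 2 and 4 with 1. Of the 25, 11 lay within 1 kb of an own end, 12 lay nearer another gene, and 2, both of Mki67, lay nearest to the gene itself but farther than 1 kb. Mcm3, Mcm4 and Mcm6 had their own-end region and no other region of any kind within 10 kb. Top2a had its own-end region and a peak of Abcam76013 alone near the transcription end. Cdc20, the shortest gene at 4.44 kb, had 6 4-antibody regions within 10 kb, of which 5 lay nearer another gene.

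**Figure D1:**
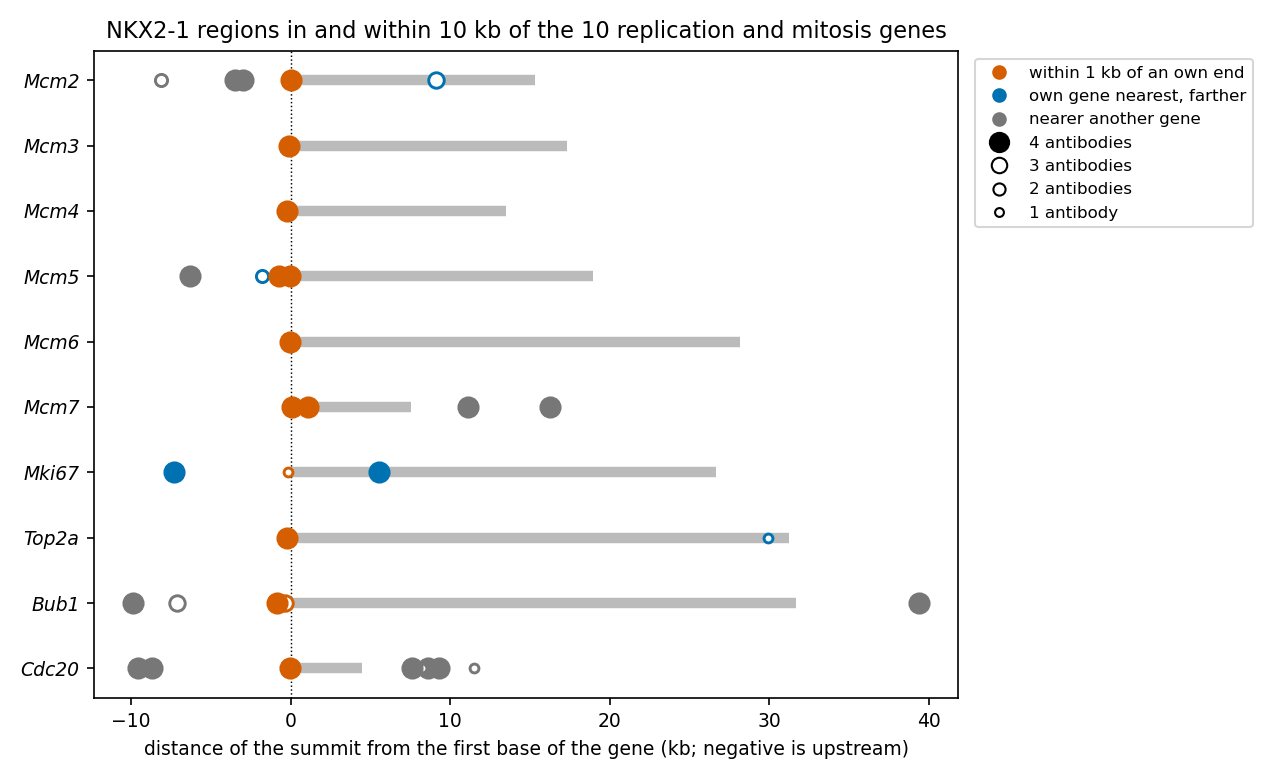
Position of the 34 NKX2-1 regions relative to the first base of each gene in kb, with the gene as a grey bar running right; filled circles are regions of 4 antibodies and open circles regions of 3, 2 or 1, by size. For Mcm4, whose strand is not in the promoter table, distance is counted from the gene end that carries its region; orange circles sit at the starts of the genes, with the open circle of 1 antibody at Mki67, and grey circles lie nearer another gene.

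The start windows of 6 genes are shown because the peak summits lay in or beside them and because they carry the motifs by which replication and mitotic genes are known. Each sequence is the RefSeq window on GRCm38.p6 (the assembly that mm10 names), from 250 bases before the start site to 50 bases from it, read 5′ to 3′ on the strand of the gene. Capitals mark every match, on either strand, to TTTNNCGC (E2F), TTTGAA (CHR), CCAAT (NF-Y), CTCAAG or CAAGTG (cores of NKX2 family sites). The NKX2 cores share the letters CAAG and could overlap each other, and TTTNNCGC can overlap its own reverse complement.
Mcm6, chr1:128359656-128359955, minus strand: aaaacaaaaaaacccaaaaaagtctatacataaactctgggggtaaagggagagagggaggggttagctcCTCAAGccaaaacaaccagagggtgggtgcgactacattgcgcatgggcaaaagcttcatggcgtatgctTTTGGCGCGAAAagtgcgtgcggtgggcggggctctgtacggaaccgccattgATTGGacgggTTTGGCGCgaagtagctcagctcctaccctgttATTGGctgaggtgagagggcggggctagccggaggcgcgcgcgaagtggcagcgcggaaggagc
Mcm7, chr5:138171834-138172133, minus strand: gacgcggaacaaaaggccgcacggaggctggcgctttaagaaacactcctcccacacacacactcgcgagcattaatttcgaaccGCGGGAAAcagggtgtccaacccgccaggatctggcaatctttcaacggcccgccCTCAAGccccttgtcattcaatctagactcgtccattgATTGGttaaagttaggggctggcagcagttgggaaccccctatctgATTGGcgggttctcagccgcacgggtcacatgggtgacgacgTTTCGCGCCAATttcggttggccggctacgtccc
Mcm5, chr8:75109259-75109558, plus strand: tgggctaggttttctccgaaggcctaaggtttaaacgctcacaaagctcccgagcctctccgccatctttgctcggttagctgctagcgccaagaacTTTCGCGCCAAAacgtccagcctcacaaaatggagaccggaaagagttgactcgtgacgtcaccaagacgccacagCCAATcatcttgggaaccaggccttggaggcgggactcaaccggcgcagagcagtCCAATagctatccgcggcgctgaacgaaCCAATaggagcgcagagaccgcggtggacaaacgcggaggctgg
Top2a, chr11:99024140-99024439, minus strand: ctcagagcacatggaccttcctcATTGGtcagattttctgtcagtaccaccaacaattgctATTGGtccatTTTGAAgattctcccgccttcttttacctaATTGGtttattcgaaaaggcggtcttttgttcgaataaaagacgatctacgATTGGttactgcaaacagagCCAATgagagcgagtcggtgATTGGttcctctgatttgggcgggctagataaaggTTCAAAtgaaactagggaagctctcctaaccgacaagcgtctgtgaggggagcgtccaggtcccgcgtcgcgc
Cdc20, chr4:118437294-118437593, minus strand: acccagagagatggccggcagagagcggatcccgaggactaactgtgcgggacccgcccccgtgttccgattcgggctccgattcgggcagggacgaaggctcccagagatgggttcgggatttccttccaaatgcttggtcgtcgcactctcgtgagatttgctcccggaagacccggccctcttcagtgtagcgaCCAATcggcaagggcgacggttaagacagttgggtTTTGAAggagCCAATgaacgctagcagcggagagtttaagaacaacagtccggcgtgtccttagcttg
Mki67, chr7:135716330-135716629, minus strand: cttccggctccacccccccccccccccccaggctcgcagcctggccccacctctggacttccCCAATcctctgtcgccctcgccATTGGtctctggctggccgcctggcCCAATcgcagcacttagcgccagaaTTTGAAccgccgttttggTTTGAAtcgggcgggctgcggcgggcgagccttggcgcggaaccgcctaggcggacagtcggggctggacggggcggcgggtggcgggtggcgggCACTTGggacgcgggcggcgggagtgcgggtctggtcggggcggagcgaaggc

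E2F letters were found in the windows of 4 genes and CHR letters in those of 4 others. With so few windows, no difference between the MCM genes and the mitotic genes was tested. TTTNNCGC stood in the windows of Mcm3, Mcm5, Mcm6 and Mcm7, in 4 of the 10 windows of the 9 genes, against 6.30% of 21045 windows of protein-coding genes. TTTGAA stood in 4 of the 10 windows, those of Top2a, Cdc20, Mki67 and Mcm2, against 15.6% of all windows. CCAAT was in all 10 windows, against 38.5%. An NKX2 core was in 5 of the 10 windows, as CTCAAG in Mcm6 and Mcm7 and as CAAGTG in Mcm2, Mki67 and Bub1, against 25.1% of all windows. Over the genome, 26.4% of the windows that held the summit of a 4-antibody region had an NKX2 core, against 24.8% of the windows that held none. Of the cores, CTCAAG was in 17.7% and 14.3% of these windows, and CAAGTG, at 11.5% and 13.5%, was less frequent in those with a summit. For E2F letters these shares were 10.0% and 5.26%, and for CCAAT 46.3% and 36.3%. CHR letters ran the other way, at 10.8% with a summit and 16.9% without. Among CpG-rich windows the shares with an NKX2 core were 23.9% with such a summit and 17.3% without. In the same order they were 11.3% and 9.30% for E2F letters, 45.6% and 31.6% for CCAAT, and 9.64% and 9.62% for CHR letters. CAAGTG changed its order there, at 9.94% with a summit and 8.87% without. CTCAAG was more frequent with a summit there too. A match is a string of letters and not a mapped site.

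The distance of the summits to these letters differed between windows. In Mcm6 the summits of the 4 antibodies fell on bases 199, 214, 242 and 255 of the window. Among them or beside them were the E2F match at 204 to 211 and the CCAAT matches at 194 to 198 and 237 to 241. The other E2F letters began at base 141 and CTCAAG at base 71. In Mcm3 the summits fell on bases 113, 121, 135 and 148, with base 135 inside a CCAAT match at 134 to 138, and before E2F letters that start at 270. In Mcm7 the summits fell on bases 94, 95, 112 and 130, just after an E2F match at 86 to 93 and before CTCAAG at 141. In Mcm5 they fell on bases 156, 163, 172 and 210, around a CCAAT match at 174 to 178 and after the overlapping E2F letters that start at 98. In Cdc20 they fell on bases 181, 190, 207 and 211, around CCAAT at 198 to 202 and before TTTGAA at 233. In Top2a 1 summit fell on base 15, before a CCAAT match at 24 to 28, and the other 3 lay just before the upstream edge of the window. In Mcm2 the summits fell on bases 247, 254, 264 and 273, downstream of every match, the last of which was TTTGAA at 181 to 186. The lone Mki67 summit also lay just outside the window, on the upstream side.

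**Figure D2:**
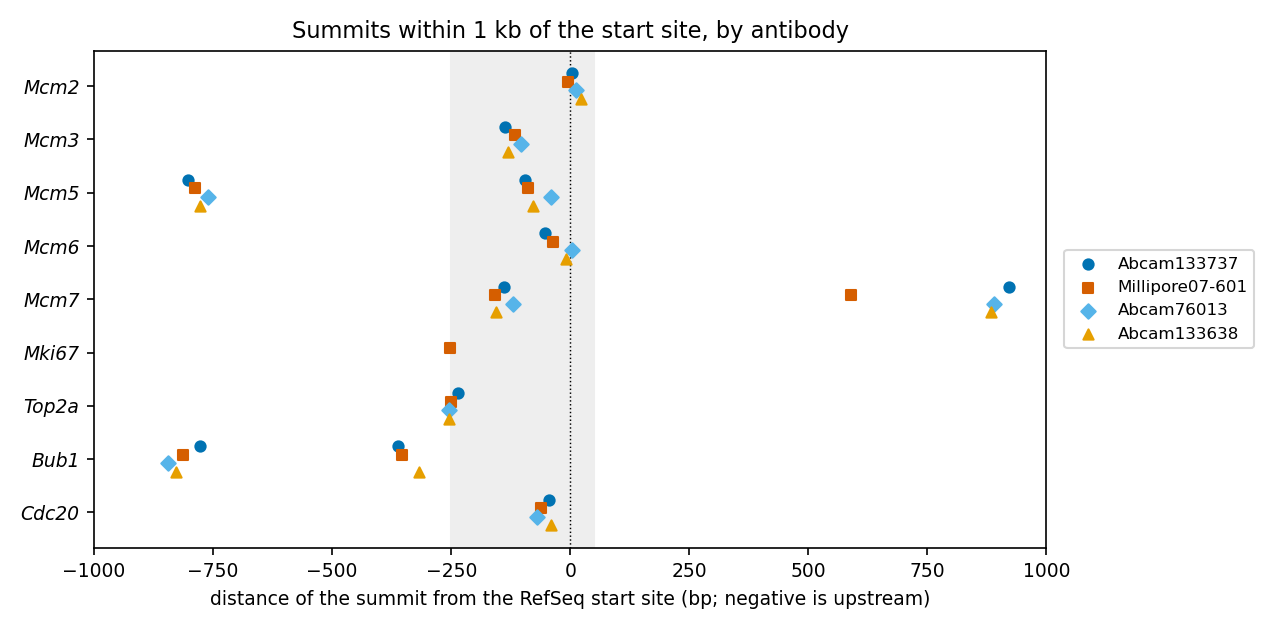
Peak summits within 1 kb of the RefSeq start site for 9 of the genes, in bp from the start site, with 1 marker per peak and antibody; the grey band is the 300-base window. For Mcm2, Mcm3, Mcm5, Mcm6, Mcm7 and Cdc20 a group of 4 summits lies inside the band, Top2a and Mki67 have theirs at its upstream edge, Bub1 has its groups farther upstream, and Mcm5 and Mcm7 have another group outside the band; a second Abcam133737 summit of the Bub1 region lies outside the axis.

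The MCM helicase genes all carried a 4-antibody region at an own end, 6 of 6, against 33.9% of all genes and 76% of the 25 housekeeping genes. They had 8 such regions in all, including a region shared by Mcm4 and Prkdc and a region shared by Mcm7 and Ap4m1. At Mcm2 the region covered the start site (chr6:88898649-88898952), with its median summit 8 bp downstream of it. Its fold enrichment, the pileup of tags over the local background, was 5.76 with Abcam133737, 7.61 with Millipore07-601, 6.09 with Abcam76013 and 7.33 with Abcam133638, on 27, 35, 29 and 33 tags at the summit. The 4 libraries thus gave similar values at this start. Inside the gene, 6.18 kb from its transcription end, stood a further region of 3 antibodies, without Abcam76013 (folds 4.12 to 6.25).

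Mcm3 had a single region (chr1:20820217-20820587), with its median summit 123 bp upstream of the start. Its fold was 7.45 with Abcam133737, 10.5 with Millipore07-601, 5.59 with Abcam76013 and 6.73 with Abcam133638, so Millipore07-601 stood above the other 3. The region of Mcm6 (chr1:128359424-128360012) had its summit 23 bp upstream of the start and folds of 3.72 with Abcam133737, 5.36 with Millipore07-601, 4.26 with Abcam76013 and 7.54 with Abcam133638. Here Abcam133638 was highest and Abcam133737 lowest.

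Mcm4 shares its promoter region with Prkdc, which encodes the catalytic subunit of the DNA-dependent protein kinase and begins just past the end of Mcm4. The region there (chr16:15637310-15638000) held 8 peaks. Its median summit lay 206 bp from the end of Mcm4 and 162 bp from that of Prkdc, so the site cannot be given to either gene. Folds were 4.12 with Abcam133737, 4.65 with Millipore07-601, 4.47 with Abcam76013 and 7.54 with Abcam133638, and Abcam133638 alone was above 5. Its summits were spread over 424 bp, the widest spread of the 11 own-end regions, whose median was 42 bp.

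Mcm5 carried a pair of 4-antibody regions before its start. The one at the start (chr8:75109255-75109579, median summit at −83 bp from the start site) had folds of 5.56, 5.56, 3.73 and 5.57 with Abcam133737, Millipore07-601, Abcam76013 and Abcam133638. The one at −783 bp (chr8:75108608-75108878) had 4.28, 6.15, 4.10 and 6.73 in the same order. Neither was above the other in all 4 libraries. A region of 2 antibodies, Abcam133737 (4.35) and Abcam133638 (4.75), lay 1.78 kb from the gene, outside the 1 kb limit.

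Mcm7 had the strongest start of the MCM genes. The region there (chr5:138171832-138172225) had folds of 7.64 with Abcam133737, 10.9 with Millipore07-601, 8.77 with Abcam76013 and 10.2 with Abcam133638. It lay 9 bp from an end of Ap4m1, which encodes a subunit of the AP-4 vesicle coat and overlaps the end of Mcm7. It was therefore counted as shared with Ap4m1. An inner region (chr5:138170815-138171595), 270 bp downstream of a second RefSeq start site of Mcm7, had folds of 3.70 with Abcam133737, 10.8 with Millipore07-601, 7.46 with Abcam76013 and 11.0 with Abcam133638. Tags at the summit of each antibody numbered 35, 50, 39 and 56, and the low value of Abcam133737 was set against a local background 2.26 times the genome-wide one. The summits were spread over 332 bp, so the folds were not taken at a common place. Millipore07-601 had its summit 28 bp upstream of the second start site and the other antibodies 267 to 304 bp downstream. By its median summit this region lay 1.11 kb from the outer end of the gene and counted as an own-end region because the summit of Millipore07-601 lay nearer.

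Among the genes of mitotic chromosomes, Top2a and Mki67 differed at their starts. Top2a had a 4-antibody region (chr11:99024098-99024578) with its median summit at −253 bp from the start site and folds of 7.45 with Abcam133737, 11.7 with Millipore07-601, 8.39 with Abcam76013 and 7.88 with Abcam133638. Summits of the antibodies agreed within 18 bp, the closest of the 11 own-end regions. At the same distance, −253 bp, Mki67 had the peak of Millipore07-601 alone, at a fold of 3.77 and 18 tags (chr7:135716494-135716688). The other antibodies gave no peak there at the authors' q cutoff of 0.05, which does not show that NKX2-1 was absent.

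Mki67 instead had 4-antibody regions away from its ends. One lay inside the gene, 5.47 kb downstream of the start (chr7:135710687-135711076), at folds of 4.73 with Abcam133737, 9.92 with Millipore07-601, 6.71 with Abcam76013 and 7.50 with Abcam133638. The other lay upstream, 7.29 kb outside the gene (chr7:135723565-135723945), at 4.53, 5.76, 4.29 and 5.19 in the same order. Both had Mki67 as their nearest protein-coding gene. Its start window was also the most GC-rich of the 9 genes, at 72.7% against 47.7% to 61.3% for the other windows.

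Of the checkpoint pair, Bub1 had the own-end region with the highest mean fold of the 10 genes. It was the highest with Abcam133737, Millipore07-601 and Abcam76013, by the widest margin with Millipore07-601. With Abcam133638 both Mcm7 regions were higher. The Bub1 region lay 829 bp upstream of the start (chr2:127832517-127833011), with folds of 8.03 with Abcam133737, 14.6 with Millipore07-601, 9.34 with Abcam76013 and 8.62 with Abcam133638. Nearer the start, at 353 bp, a region of 3 antibodies had folds of 5.76 with Abcam133737, 7.83 with Millipore07-601 and 6.03 with Abcam133638 and lacked a peak of Abcam76013. With an own-end limit of 500 bp Bub1 therefore had no 4-antibody region at its end. Cdc20 had its region at the start (chr4:118437285-118437586, 53 bp upstream), at 5.23 with Abcam133737, 7.17 with Millipore07-601, 4.29 with Abcam76013 and 6.58 with Abcam133638. Its transcription end, which overlaps an end of Elovl1, a gene for an elongase of very long fatty acids, had no region.

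**Figure D3:**
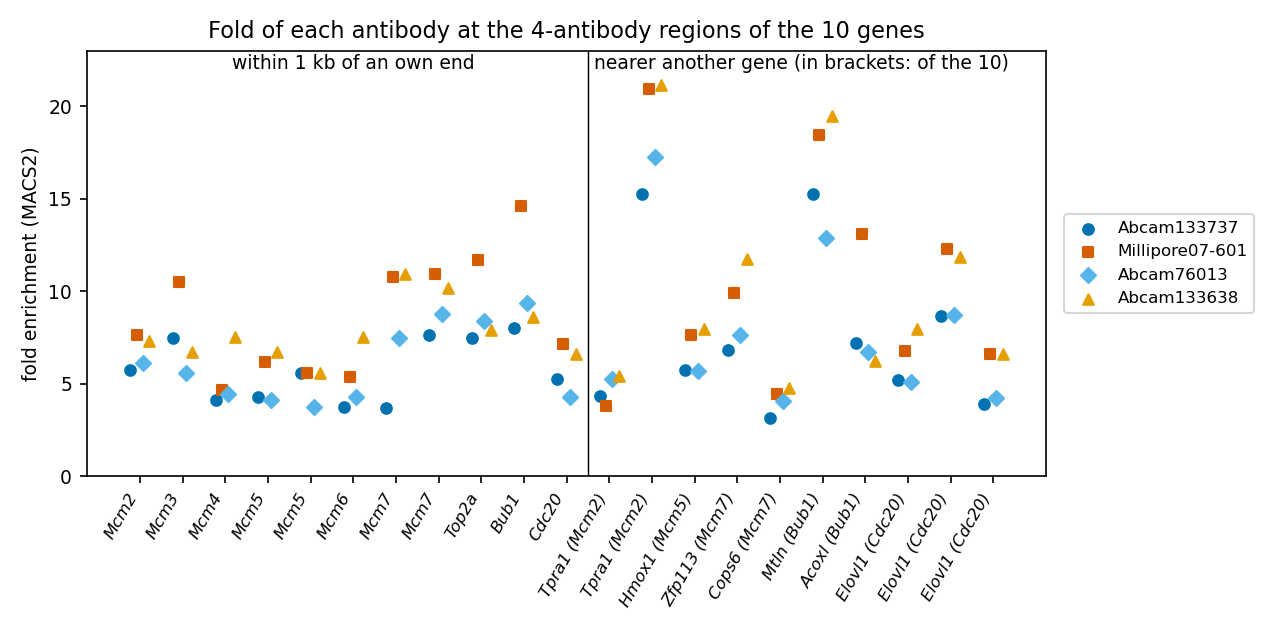
Fold enrichment of each antibody, as given by the authors' peak caller, at the 11 own-end regions (left) and at 10 of the 12 4-antibody regions nearer another gene (right, named by that gene). Own-end values lie between 3.70 and 14.6, and the highest points of the plot are at Tpra1 and Mtln on the right.

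The strongest regions within 10 kb of these genes lay nearer to the ends of neighbouring genes, which does not show which gene they act on. The highest spanned an end of Tpra1, 3.48 kb upstream of the start of Mcm2 (chr6:88902063-88902943), with folds of 15.2 with Abcam133737, 20.9 with Millipore07-601, 17.3 with Abcam76013 and 21.1 with Abcam133638. The next lay 12 bp from an end of Mtln, which encodes a small protein of mitochondria, and 7.72 kb beyond the transcription end of Bub1 (chr2:127792262-127792686), with 15.3, 18.4, 12.9 and 19.5 in the same order. These stood at percentiles 94.2 and 91.9 of the mean fold among all 31606 4-antibody regions. No own-end region of the 10 genes reached the 90th percentile.

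The other regions nearer another gene were weaker. The second one near Tpra1, 463 bp from that gene, had a mean fold of 4.70. Near Cdc20 the 3 regions inside Elovl1 had mean folds of 6.26, 10.4 and 5.33. On the transcription-end side of Mcm7, a region 84 bp from Cops6, a subunit gene of the COP9 signalosome, had a mean fold of 4.10 and one 96 bp from the zinc finger gene Zfp113 had 9.02. Before Mcm5 a region 2.58 kb from Hmox1, the heme oxygenase 1 gene, had 6.76. The region inside Acoxl, an acyl-CoA oxidase-like gene upstream of Bub1, had 8.32 and lay 9.85 kb from Bub1, just inside the 10 kb limit. The nearest 4-antibody region just outside that limit was 14.0 kb from Bub1, again nearest to Acoxl, at a mean fold of 4.86.

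The own-end regions of the 10 genes were of ordinary strength for regions at gene ends. Their mean fold over the 4 antibodies ran from 5.10 at the start of Mcm5 to 10.1 at Bub1, with a median of 6.70 over 11 regions, against 6.79 over 7227 4-antibody regions at gene ends and 7.14 over all 31606. Of the 11, 5 lay above the median of all 4-antibody regions. Their percentiles in that set ran from 17.4 to 74.2. The 12 regions nearer another gene had a median of 6.51 and a wider range, from 4.04 to 18.6. Over the genes with an own-end region, the best mean fold per gene had a median of 6.70 for the 9 genes and 7.03 for all 7336.

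**Figure D4:**
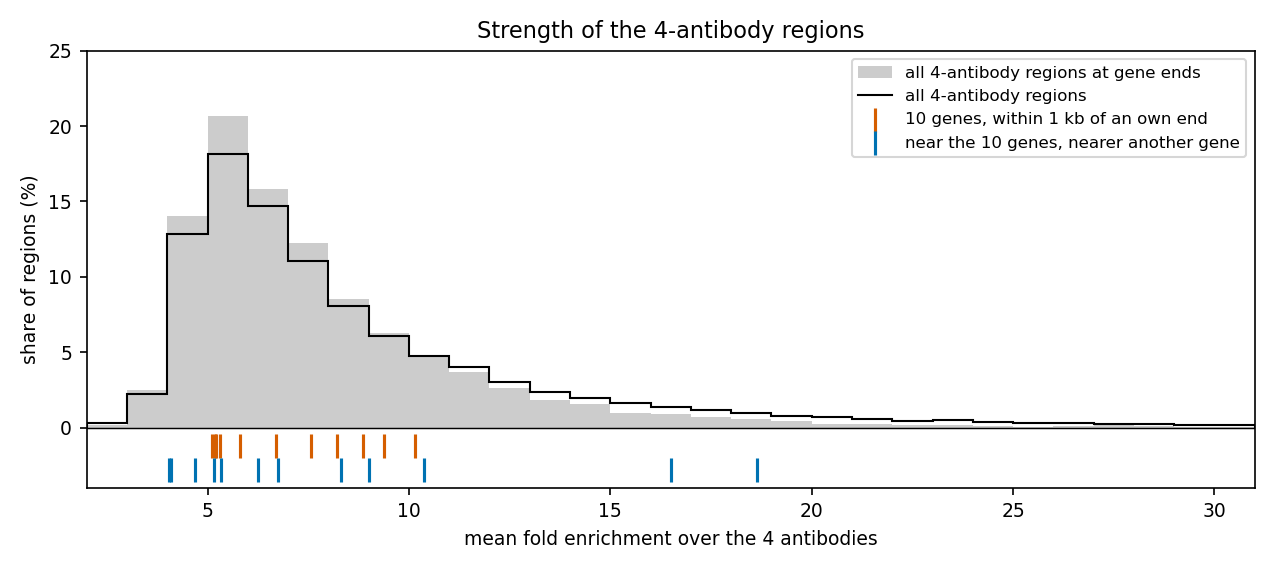
Share of 4-antibody regions in percent by mean fold enrichment over the 4 antibodies, for regions at gene ends (grey) and for all (line); regions above the end of the axis are not drawn. Ticks below mark the 11 own-end regions of the 10 genes (orange), which lie between 5.10 and 10.1, and the 12 regions nearer another gene (blue), of which 2 stand apart at 16.5 and 18.6.

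Millipore07-601 and Abcam133638 gave the highest folds at these starts. The highest of the 4 folds came from Millipore07-601 at 6 of the 11 own-end regions and from Abcam133638 at the other 5. Over all 4-antibody regions these shares were 56.4% and 39.3%, so the order of antibodies at the 10 genes resembled that of the genome. The median fold over the 11 regions was 5.56 with Abcam133737, 7.61 with Millipore07-601, 5.59 with Abcam76013 and 7.54 with Abcam133638. Medians over all 4-antibody regions at gene ends were 5.76, 7.61, 5.68 and 8.26. Per 10 M filtered tags the median pileup at the 11 regions was 6.23, 9.06, 6.24 and 7.59 tags in the same order. The highest fold of a region was 1.32 to 2.96 times its lowest, and with 1 library per antibody this spread has no error.

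Local background differed between the genes. Of the 49 peaks in the 11 own-end regions, 21 (42.9%) had the genome-wide background (tolerance 0.02 tags), against 65.5% of 30922 peaks in 4-antibody regions at gene ends and 62.0% of all 197827 peaks. Peaks of a region share their surroundings: at Mcm2, Mcm4 and Bub1 every peak had the genome-wide value, and in 5 of the 11 regions none had. At the other peaks the background was higher, up to 2.26 times the genome-wide value, and the median over the 49 peaks was 1.08 times. The part of this background in the peaks was not tested.

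Other genes of the same processes were counted for comparison. Of 160 genes in 5 lists of replication and mitosis, 85 (53.1%, interval 45.1 to 61.0) had a 4-antibody region within 1 kb of an own end. The share over all protein-coding genes was 33.9%. Among the CpG-rich genes of these lists, 71 of 118 (60.2%) had one within 1 kb of a start site. The share over all CpG-rich genes was 54.8%, so the lists together stood near that background. By list this CpG-rich share ran from 48% (12 of 25, checkpoint) to 66.7% (16 of 24, regulators of the cell cycle programme). Differences of single lists from the background were not tested. Housekeeping genes, active in all cells, numbered 19 of 25 (76%, 54.9 to 90.6) for a region within 1 kb of an own end. Of their CpG-rich genes, 13 of 17 (76.5%) had one within 1 kb of a start site. The differences between these lists were not tested.

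Licensing and firing of origins, the step in which the MCM ring is loaded and activated, was represented by 28 genes. Of these, 15 (53.6%) had an own-end 4-antibody region, against 33.9% of all genes. The strongest were at Gins2 (mean fold 15.6) and Gins3 (8.66), subunits of the GINS complex that joins the MCM ring in the active helicase, and at Orc5 (8.24), a subunit of the origin recognition complex. Of 31 genes of the fork and of nucleotide supply, 17 (54.8%) had one. They were led by Pold1 (11.0), the catalytic subunit of DNA polymerase delta, and Chaf1a (9.59), a chromatin assembly factor. Next was Rpa3 (8.97), a subunit of the single-strand binding protein, whose region lay nearer its neighbour Umad1.

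Genes of the checkpoint and of anaphase numbered 15 of 31 (48.4%), against 33.9% of all genes. They were led by Anapc4 (11.7) and Cdc26 (10.2), subunits of the anaphase-promoting complex that Cdc20 activates, and Cdca8 (10.9), a subunit of the chromosomal passenger complex. The region of Cdc26 lay nearer Prpf4 and that of Cdca8 nearer 9930104L06Rik. At Bub3, the gene of the binding partner of BUB1, none of the 4 antibodies gave a peak in the gene or its 10 kb surroundings. Among genes of mitotic chromosomes, kinetochore and spindle there were 21 of 33 (63.6%). They were led by Ect2 (15.8), Tacc3 (12.3) and Knl1 (12.0), the kinetochore scaffold to which BUB1 binds. Aspm, a spindle pole gene, had no peak of any antibody in the gene or within 10 kb, as at Bub3. Of all protein-coding genes, 72.6% had such a peak. Regulators of the cell cycle programme numbered 17 of 37 (45.9%). They were led by E2f2 (20.7), whose own-end region lay 742 bp from its transcription end. Next were Lin52 (13.6), a subunit of the MuvB core, and Nfya (13.4), a subunit of NF-Y, whose region lay nearer Oard1. The medians of the best own-end mean fold in these lists, 5.96 to 7.71, were near those of the 10 genes and of all genes.

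**Figure D5:**
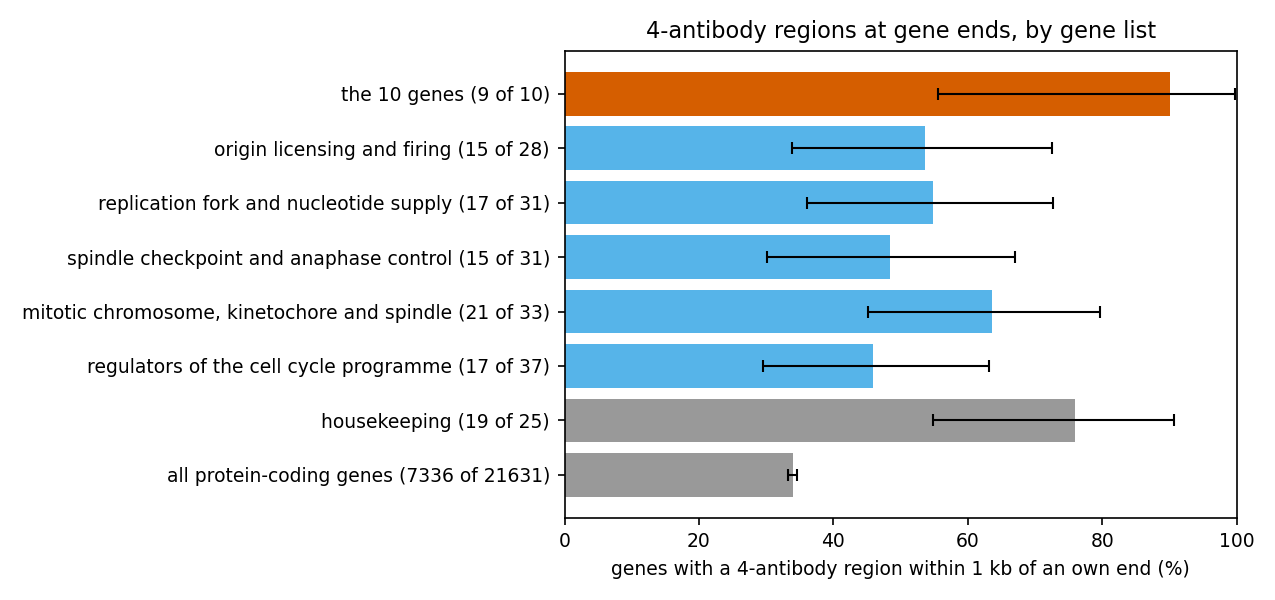
Share of genes in percent with a 4-antibody region within 1 kb of an own end, for the 10 genes (top), 5 lists of related genes, housekeeping genes and all protein-coding genes (bottom); whiskers are exact Clopper-Pearson 95% intervals, which cover counting error only. The 10 genes stand at 90%, the 5 lists between 45.9% and 63.6%, housekeeping genes at 76% and all genes at 33.9%.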

How the data were processed

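Whole-lung NKX2-1 ChIP-seq of 4 antibodies, 1 library each, was used as peak tables. Peak calling used MACS 2.1.2, per the file headers, for each antibody against the same input, at a q cutoff of 0.05, keeping 1 tag per position. Filtered depth was 43031331 to 46547989 tags in the antibody libraries and 10653749 in the input. The submitters' processing notes name mm10. Deposited values are the summit's pileup signal, in tags, the fold enrichment, a ratio over local background, and the p-value and q-value as −log10. Regions, distances and counts were computed with Python 3.11.15, pandas 2.3.3 and numpy 2.4.6, tested on planted peaks. A region's place is its median summit, its fold per antibody the highest of its peaks, and its mean fold their mean. It counts as own-end where a summit lies within 1 kb of the gene's start or end in RefSeq (GRCm38.p6). The genes and lists were chosen with earlier results of these data known. The text names the 10 genes, neighbours nearer to their regions, from each related list the 3 genes with the highest own-end mean fold, and genes without a peak. Motif searches covered promoter windows alone, since no genome was used here. One neighbouring gene is not reported here, and its 2 regions enter only the counts and ranges.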

Additional observations from a re-analysis of the deposited data

How the results depend on the processing

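Of 67 values recomputed for 6 results, 54 stayed within 1.5 times the reported count or, for the median fold, within 1.10, the SD of the medians of the 4 antibodies, and 13 did not. Joining peaks only at 50% overlap changed none of the 6 results beyond these limits, and the own-end count stayed at 9 genes. Leaving out any 1 antibody or accepting any 3 changed none beyond them either. Both settings ask for 3 antibodies in place of 4, so the gene counts could hardly fall, and they could not exceed 10. That these counts held was thus nearly fixed in advance and is no check on the antibodies. Of the 13, 10 came from a filter on fold and 3 from the window. With a fold of at least 5 in every list, 5 of the 10 genes had an own-end region (Mcm2, Mcm3, Mcm7, Top2a and Bub1), against 18.9% of all genes, own-end regions numbered 5, regions within 10 kb 12, those nearer another gene 7, and the median best fold was 8.86. With the 10000 strongest peaks of each list no own-end region was left (0 of the 10 genes, 0 regions), against 6.04% of all genes, and the 3 regions within 10 kb, of 3 genes (22.2% of all genes), were all nearer another gene. A −log10 q-value of at least 5 in every list left 8 of the 10 with an own-end region, without Mcm6, against 28.2% of all genes. With a window of 50 kb regions numbered 48, of which 30 were nearer another gene, and with 5 kb those nearer another gene numbered 6. No paired analysis was possible because each antibody has 1 library. Depth limits weak peaks: a missing peak, as at Mki67, means under the authors' cutoff.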

Other observations

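Within the checkpoint list, 21 of 31 genes (67.7%) had a 4-antibody region within 10 kb, against 58.6% of all genes. The genes with and without one were mixed in role: among the kinases Aurka, Aurkb and Bub1b had one and Cdk1, Plk1 and Ttk had none, and among the cyclins Ccnb1 and Ccna2 had one and Ccnb2 had none. These genes were named after their values were seen. In the list of fork and nucleotide genes, 28 of 31 (90.3%) had one, and in the list of origin genes 25 of 28 (89.3%). The difference between these lists was not tested.

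Summits of 4-antibody regions within 1 kb of a start site lay upstream of it at 8 of 10 such regions of the 9 genes with strand, with a median of −103 bp, and at 70.9% of 6812 such regions of all genes, with a median of −63 bp.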
